A study of Caenorhabditis elegans with 12 samples.

Results

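The cytoplasmic ribosomal protein genes of Caenorhabditis elegans were taken as every protein-coding gene named rpl- or rps- followed by a number, and the small RNAs counted were those antisense to them. This gave 76 of the 19691 antisense protein-coding rows among 63014 feature rows, 45 for the large subunit (rpl) and 31 for the small subunit (rps). The genes lay on all chromosomes, with 23 on chromosome I, 18 on III, 16 on IV, 9 on II, 8 on V and 2 on X. All 76 had an entry in the WBcel235 annotation. Ribosomal proteins with names outside this rule (rla-0, rla-1, rla-2, ubl-1, ubq-2 and rpl-7A) were followed as a separate list.

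Ribosomal proteins fold around the ribosomal RNAs, the small subunit decoding the mRNA and the large subunit joining amino acids. Their mRNAs are among the most abundant in any growing cell, the germline included. In C. elegans, RNA-dependent RNA polymerases copy mRNAs into 22G-RNAs, short antisense RNAs that begin with G. The Argonaute WAGO-4 binds 22G-RNAs in the germline, where it concentrates in perinuclear germ granules and takes part in inheritance of RNA silencing.

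The study asked whether losing WAGO-4 from germ granules changes the small RNAs it carries. The wild type (WT) was strain YY1325, with the allele wago-4(gg620[3xflag::gfp::wago-4]) on chromosome II. The 3×FG mutant, strain SS142 in the labels, carried the same tagged wago-4 together with glh-1(allele50[glh-1F>A]), glh-4(allele16[glh-4F>A]) and glh-2(allele49[glh-2 delFG]). These alleles change the phenylalanine-glycine repeats of 3 Vasa-like helicases of the granules. Whole worms were collected as young adults at 20 °C, with 3 input libraries (total small RNA) and 3 WAGO-4 immunoprecipitation (IP) libraries per genotype. A whole worm mixes germline and body, so fewer cells of a type and less RNA per cell cannot be told apart.

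Read totals of the WT inputs were 2208475, 5200665 and 20006273, and those of the 3×FG inputs 78826261, 45860107 and 11890545. From the spacing of low values, IP libraries held about 20297000 to 47046000 reads. WT inputs 1 and 2 formed batch A in the labels and the other 10 libraries batch B. rRNA took 3.39% and 5.26% of feature reads in the batch A inputs against 15.9% to 21.2% in the others. Values are in RPM, the number of reads scaled to the depth of the library, and nothing in the labels says whether replicates were separate cultures, so p-values measure the spread between these samples.

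Antisense reads were found over most ribosomal protein genes in total small RNA, and their amount spanned more than 3 orders of magnitude between genes. In the 6 inputs, 72 to 75 of the 76 genes had at least 1 antisense read. Summed over the 45 large subunit genes, input levels were 625, 700 and 642 RPM in WT and 612, 668 and 813 RPM in 3×FG. Summed over the 31 small subunit genes, they were 287, 339 and 342 RPM in WT and 353, 409 and 528 RPM in 3×FG. The large subunit sums overlapped between genotypes, whereas the small subunit sums did not, at most 342 RPM in WT against at least 353 RPM in 3×FG. Scaled by depth alone, 6881 of 10863 antisense protein-coding rows were higher in 3×FG, with a median log2 change of 0.29. The sums were not tested.

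A single gene dominated the large subunit. The gene rpl-23, whose product lies on the face of the large subunit that meets the small one, had 188, 242 and 202 RPM in WT inputs and 190, 209 and 254 RPM in 3×FG inputs. Per kilobase of spliced transcript its mean input level was 423 RPM, against a median of 13.6 RPM over the 45 large subunit genes. It was followed by rpl-43 with 124, rpl-34 with 82.9, rpl-19 with 56.8 and rpl-27 with 41.6 RPM per kilobase. The lowest were rpl-37 with 0.079, rpl-25.1 with 1.36, rpl-29 with 1.76, rpl-17 with 3.07 and rpl-22 with 4.04 RPM per kilobase.

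The small subunit had a median of 12.9 RPM per kilobase. At its top stood rps-15, which sits in the head of the subunit, with 185 RPM per kilobase. The next genes were rps-29 with 103, rps-16 with 81.5, rps-24 with 28.6 and rps-28 with 28.6 RPM per kilobase. At the bottom were rps-0 with 0.904, rps-9 with 4.93, rps-1 with 6.02, rps-5 with 6.73 and rps-30 with 7.32 RPM per kilobase.

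A few genes came and went between libraries. The gene rpl-29 had 116 reads in 3×FG input 2 and 0 in the 5 other inputs. The gene rpl-17 had 7, 12 and 56 reads in WT and 0, 3 and 43 in 3×FG, the 0 being in the deepest library. The gene rps-0 had 6, 0 and 41 antisense reads in WT and 0 in each 3×FG input, where a count of 0 allows up to 3 reads by counting error alone. The genes rpl-29, rpl-37 and rps-0 did not pass the filter on low counts and were not tested.

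The input comparison asked whether the pool of antisense small RNAs differed before the IP. One gene fell in 3×FG and none rose, of 73 tested, at an adjusted p below 0.01 and a fold change beyond 2 (log2 beyond 1). Of all 22301 features tested, 2.04% were called lower and 0.839% higher by this rule. Among the 10863 antisense protein-coding rows tested, 332 were called lower and 164 higher. At an unadjusted p below 0.05, 12 of the 73 genes passed, against 5748 of all 22301 features and 3886 of the 10863 antisense protein-coding rows. The median log2 fold change was 0.04 over the ribosomal protein genes, 0.01 over the large and 0.14 over the small subunit. It was 0.10 over all antisense protein-coding rows and 0.18 over all features, which include sense rows. Without WT input 3, 3 of the genes were called lower and 2 higher, while 3078 features were called lower and 3960 higher in place of 454 and 187. In 67 of the 73 genes the log2 change lay between -1 and 1.

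The gene that fell was rpl-34, which encodes a small protein of the large subunit. Its input levels were 43.9, 45.0 and 43.7 RPM in WT and 15.0, 18.3 and 17.6 RPM in 3×FG. All WT values were above all 3×FG values, and the WT values of both batches stood together. The log2 fold change was -1.59 (SE 0.17, edgeR quasi-likelihood test, adjusted p = 0.0031). Within batch B, where WT input 3 is the only WT library and is assumed to vary like the 3×FG inputs, it was -1.47 (adjusted p = 0.0015). The adjusted p rose to 0.0102 without WT input 1, 0.0201 without WT input 2 and 0.0215, 0.0313 and 0.0345 without 3×FG inputs 1, 2 and 3. This ended the call, and the log2 change stayed between -1.62 and -1.43. In the same order, 236, 108, 38, 4 and 1 of all features were called lower in these fits, in place of 454.

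The other large differences did not pass the test. The gene rps-4 had 10.4, 13.8 and 11.05 RPM in WT and 4.20, 4.49 and 6.31 RPM in 3×FG (log2 change -1.46, SE 0.29, adjusted p = 0.025). The fitted change of rpl-17 was -1.61 with an SE of 1.72 (adjusted p = 0.65). The largest positive values were 1.38 for rpl-36 (adjusted p = 0.080), 1.04 for rps-27 (adjusted p = 0.19) and 0.76 for rps-1 (adjusted p = 0.32).

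Of the 73 tested genes, 6 had every 3×FG input below every WT input and 18 had every 3×FG input above, which is 8.22% and 24.7%. Over all tested features these shares were 12.9% and 24%, so the ribosomal protein genes were near the background in the upward direction.

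The next question was which of these genes were WAGO-4 targets. The deposited target tables hold features with at least 5 RPM in every IP and an IP over input ratio of at least 2 in every pair. Ratios here and below were taken over the input values of these target tables. Those differ from the input RPM printed in the text, which came from the read counts. WT targets included 66 of the 76 genes (86.8%) and 3×FG targets 64 (84.2%), against 24.0% and 20.7% of all 19691 antisense protein-coding rows. Of the 66 WT targets, 62 (93.9%) were also 3×FG targets, against 84.9% over all protein-coding WT targets. This order depended on the ratio required: with a ratio of at least 3 in every pair, 41 of 60 WT targets were kept (68.3%), against 73.6% over all protein-coding ones. By subunit, 37 of 45 large subunit genes were targets in each genotype and 35 in both, and 29 of 31 small subunit genes were targets in WT and 27 in 3×FG, all 27 in both.

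Targets in WT but not in 3×FG were rpl-36, rpl-39, rps-24 and rps-28. In WT, rps-24 had 57.5, 59.6 and 49.5 RPM in the IPs at ratios of 6.34, 5.24 and 4.04. The gene rps-28 had 64.5, 61.2 and 47.8 RPM at ratios of 7.97, 6.65 and 7.97. These 2 small subunit genes stood well above the limits in WT, whereas rpl-36 with 7.44, 7.34 and 6.83 RPM stood near the RPM limit. The gene rpl-39, which encodes a short protein at the exit tunnel, had 9.65, 9.60 and 24.5 RPM. Values of these genes in the 3×FG IPs were not analysed here.

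Targets in 3×FG but not in WT were the neighbouring paralogues rpl-41.1 and rpl-41.2, which encode a very short basic peptide. They lie on the forward strand of chromosome I at 4789190 to 4789592 and 4790292 to 4790642 (WBcel235), with 699 bases between them. The IPs of 3×FG held 22.4, 27.0 and 26.8 RPM for rpl-41.1 and 23.3, 29.3 and 28.5 RPM for rpl-41.2. In the inputs both had nearly the same value in every library, such as 11.8 and 11.8 RPM in WT input 1, and reads shared by the copies may have been split between them, so their separate values are uncertain.

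In neither table were rpl-11.2, rpl-17, rpl-25.1, rpl-29, rpl-37, rpl-42, rps-0 and rps-4. Not all of these were low in the input. The gene rpl-42 had 26.7, 22.7 and 15.9 RPM in WT inputs and 22.5, 32.6 and 26.0 RPM in 3×FG inputs.

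Paralogues sharing a number differed in target status. The gene rpl-11.1, on chromosome V, was a target with 353, 351 and 195 RPM in WT IPs at ratios of 15.8, 14.7 and 7.82, whereas rpl-11.2, on chromosome X, was in neither table. Their inputs were alike in WT, with 25.8, 24.8 and 26.3 RPM for rpl-11.1 and 23.5, 20.6 and 15.5 RPM for rpl-11.2. The pair rpl-25.1 and rpl-25.2 showed the same split by chromosome, with rpl-25.1 on X in neither table at 0.385 to 0.951 RPM of input and rpl-25.2 on I in both. The genes rpl-11.2 and rpl-25.1 were the only 2 members on X, and the other genes in neither table lay on other chromosomes. Both rpl-24.1 and rpl-24.2, on chromosome I, were targets in both genotypes.

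As WAGO-4 targets in WT, ribosomal protein genes had a lower IP level per gene and a higher level per kilobase than other protein-coding targets. Among the 62 genes in both tables the median WT IP level was 62.3 RPM, or 99.8 RPM per kilobase, against 94.8 RPM and 54.1 RPM per kilobase in 3944 other genes. Their median spliced length was 543 bases against 1656. In 3×FG the medians were 35.6 RPM and 53.1 RPM per kilobase against 65.7 and 38.9 in the other genes. These differences from other genes are descriptions of the tables and were not tested.

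The WAGO-4 IP of 3×FG held less small RNA against ribosomal protein genes than that of WT. Summed over the 35 large subunit genes in both tables, IPs held 4454, 4635 and 4549 RPM in WT and 2229, 2495 and 2738 RPM in 3×FG. Summed over the 27 small subunit genes, they held 2088, 2162 and 2158 RPM in WT and 1226, 1413 and 1508 RPM in 3×FG. Neither pair of groups overlapped, and the spread within a genotype was small beside the distance between genotypes.

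**Figure D1:**
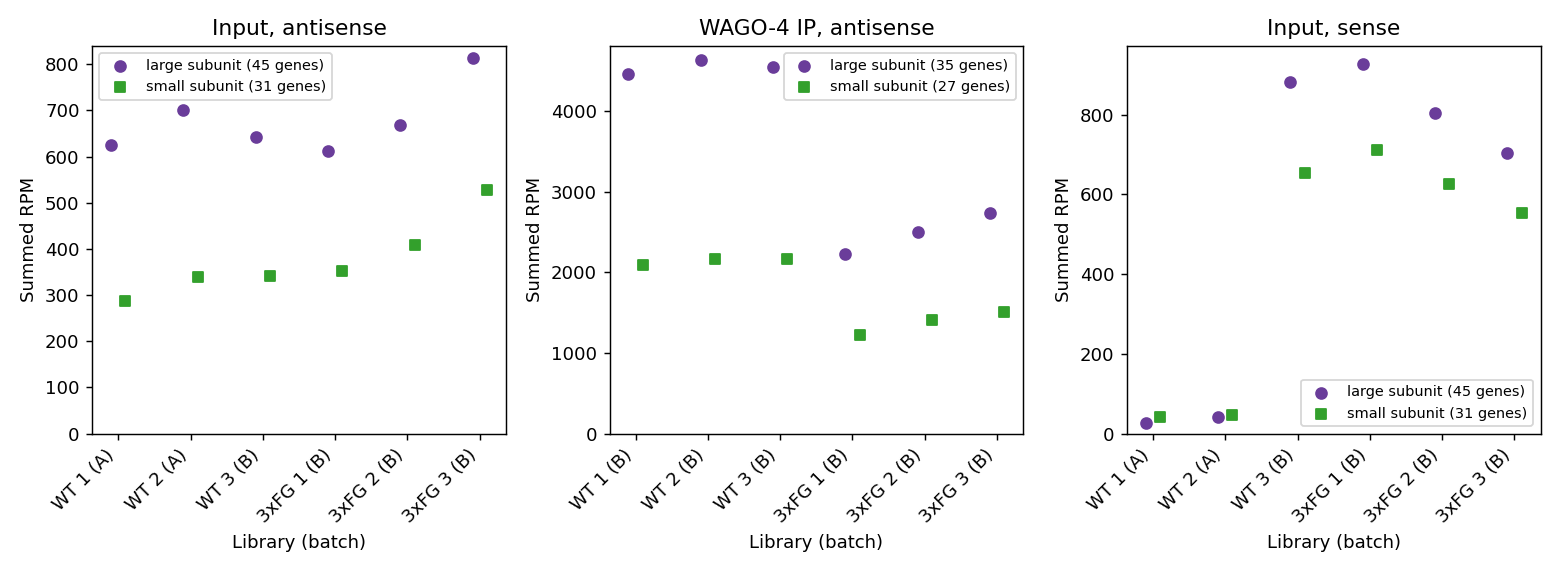
Summed RPM per library for large subunit (circles) and small subunit (squares) genes, with the batch of each library in brackets. From left to right the panels show antisense reads in the inputs, antisense reads in the WAGO-4 IPs and sense reads in the inputs. IP sums separate by genotype (4454 to 4635 RPM in WT against 2229 to 2738 in 3×FG for the large subunit), antisense input sums differ less, and sense input sums are low in the 2 batch A libraries.

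By gene, 20 of the 62 were called lower in the 3×FG IP and 0 higher. They were 13 of 35 large subunit and 7 of 27 small subunit genes. This is 32.3% of the 62, against 19.7% called lower and 0.613% called higher among all 4080 features tested (803 and 25 features). Without the fold threshold, 34 of 62 passed as lower and 0 as higher, against 40.5% and 8.55% of all features. The median log2 fold change was -0.63 over the 62 genes, -0.67 over the large and -0.49 over the small subunit, against -0.30 over all features. Every 3×FG IP was below every WT IP for 39 of 62 genes (62.9%) and above for 5 (8.06%), against 51.7% and 17% of all features.

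The scaling moved this background. With TMM scaling of the RPM values the median of all features moved from -0.30 to -0.01 and the split of calls from 803 lower and 25 higher to 545 lower and 88 higher. The median of the ribosomal protein genes moved from -0.63 to -0.33, so it stayed 0.32 below that of all features. Then 14 of 62 were called lower, against 13.4% of all features, and 0 higher, against 2.16%. The genes rpl-3, rpl-21, rpl-22, rpl-25.2, rpl-28 and rps-12 lost the call.

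**Figure D2:**
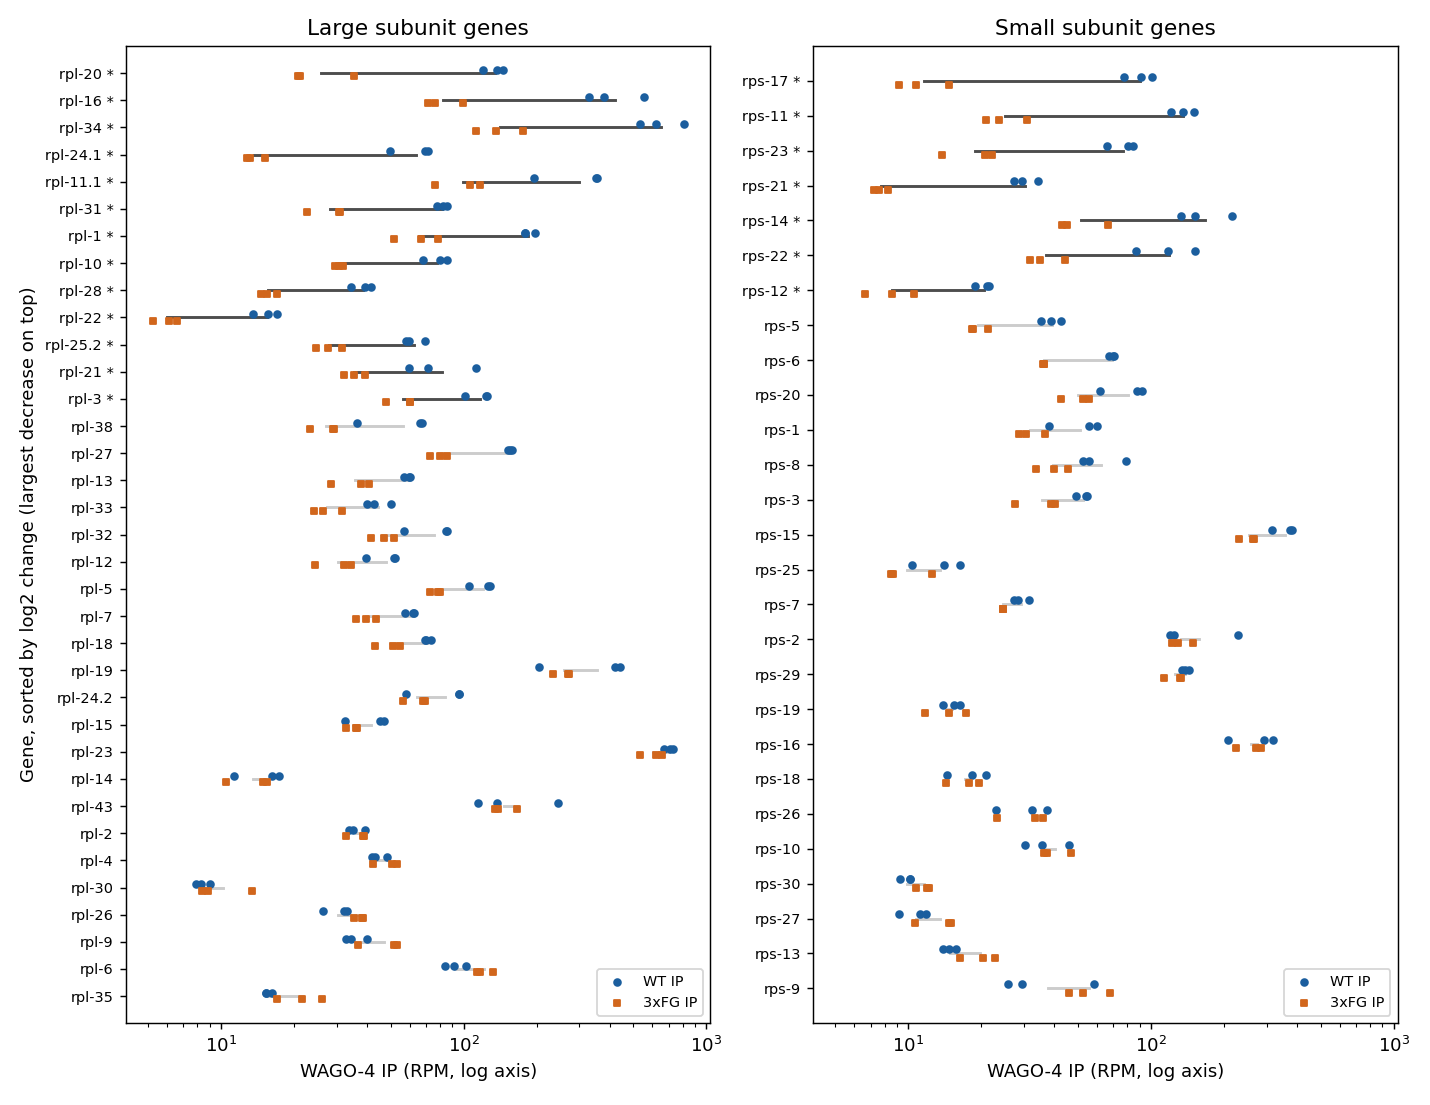
WAGO-4 IP level in RPM (log axis) of every ribosomal protein gene in both target tables, with 3 WT libraries (blue circles) and 3 3×FG libraries (orange squares) per gene and a line joining the means. Genes are sorted by log2 change, and dark lines and asterisks mark the 20 genes called lower. Circles and squares are far apart at the top (rps-17 at 77.4 to 101 RPM against 9.12 to 14.8) and mixed at the bottom.

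The largest decrease in the small subunit was that of rps-17. Its IP levels were 77.4, 91.1 and 101 RPM in WT and 9.12, 10.8 and 14.8 RPM in 3×FG. The 3×FG libraries were all far below the WT libraries (log2 change -2.87, SE 0.18, limma, adjusted p = 2.6e-06), while the log2 change of its input was -0.82 (adjusted p = 0.22). The gene lies on the reverse strand of chromosome I at 6220093 to 6220764 (WBcel235).

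Next came rps-11, on chromosome IV, with 136.1, 151 and 121 RPM in WT IPs and 20.9, 23.6 and 30.7 RPM in 3×FG IPs. Its log2 change was -2.40 (SE 0.15, adjusted p = 2.8e-06). The gene rps-23, whose product forms part of the decoding centre, had 80.4, 84.5 and 66.1 RPM in WT and 13.8, 22.1 and 20.7 RPM in 3×FG (log2 change -1.99, SE 0.18, adjusted p = 2.0e-05). For neither did any library of one genotype reach the range of the other.

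The 4 other small subunit genes called lower were rps-21 (log2 change -1.85), rps-14 (-1.67), rps-22 (-1.63) and rps-12 (-1.18). The product of rps-14 lies on the platform where mRNA leaves the subunit, and its IP levels were 132, 152 and 216 RPM in WT and 42.8, 45.0 and 66.7 RPM in 3×FG. The values of rps-12 were low in both genotypes, at 18.9 to 21.5 RPM in WT and 6.61 to 10.6 RPM in 3×FG.

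In the large subunit the largest decreases were those of rpl-20, rpl-16 and rpl-34. The gene rpl-20 had 120, 137.6 and 145 RPM in WT IPs and 20.9, 21.3 and 35.4 RPM in 3×FG IPs (log2 change -2.37, SE 0.19, adjusted p = 1.1e-05). The gene rpl-16 had 329, 380 and 552 RPM in WT and 76.2, 71.2 and 99.1 RPM in 3×FG (log2 change -2.32, SE 0.20, adjusted p = 1.3e-05). Both fell in every 3×FG IP, and rpl-16 was also lower in every 3×FG input, at 11.8 to 15.1 RPM against 19.5 to 23.5 RPM in WT (input log2 change -0.92, adjusted p = 0.035).

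The gene rpl-34 was the one with a called decrease in both input and IP. Its IP levels were 533, 620 and 808 RPM in WT and 136.3, 113 and 176 RPM in 3×FG (log2 change -2.20, SE 0.19, adjusted p = 1.4e-05). In WT it had the second-highest IP level among the genes, behind rpl-23, and in 3×FG the means of rpl-19, rps-15, rps-16 and rpl-43 were above its own. The values of rpl-19 in 3×FG were 234, 270 and 272 RPM. The gene rpl-34 lies on the forward strand of chromosome IV at 12268995 to 12269490 (WBcel235).

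The next group comprised rpl-24.1 (log2 change -2.11), rpl-11.1 (-1.55), rpl-31 (-1.52), rpl-1 (-1.50) and rpl-10 (-1.31). The product of rpl-11.1 binds the 5S rRNA, that of rpl-1 forms the mobile stalk beside the exit site for tRNA, and that of rpl-10 reaches toward the peptidyl transferase centre. The gene rpl-1 had 179, 178 and 197 RPM in WT IPs and 51.6, 66.9 and 78.2 RPM in 3×FG IPs, with no overlap. For rpl-11.1 the WT IPs were uneven, at 353, 351 and 195 RPM, but the lowest stayed above the 76.1, 117 and 106 RPM of 3×FG.

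Smaller decreases were called for rpl-28 (-1.24), rpl-22 (-1.23), rpl-25.2 (-1.13), rpl-21 (-1.12) and rpl-3 (-1.04). The product of rpl-3 lies near the peptidyl transferase centre, and that of rpl-25.2 lies at the exit of the nascent chain. For rpl-3 the log2 change rose to -0.99 without WT IP 1, to -0.997 without WT IP 2 and to -0.94 without 3×FG IP 1, which ended the call. For rpl-21 it was -0.86 without WT IP 3, and without 3×FG IP 1 it was -1.06 at an adjusted p of 0.0111. The other 18 genes kept the call without each IP in turn.

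The paralogues rpl-24.1 and rpl-24.2 had different values. The IP of rpl-24.1 held 71.4, 69.2 and 49.8 RPM in WT and 12.8, 15.2 and 13.2 RPM in 3×FG, and that of rpl-24.2 held 96.2, 96.2 and 58 RPM in WT and 56.2, 69.2 and 68.0 RPM in 3×FG (log2 change -0.34, adjusted p = 0.16). The former did not overlap between genotypes and the latter did. The difference between the paralogues was not tested.

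At the other end, no gene was called higher. The largest positive log2 changes were 0.62 for rps-9 (adjusted p = 0.084), 0.42 for rpl-35 (adjusted p = 0.041) and 0.38 for rps-13 (adjusted p = 0.040). The gene rps-9 had 25.8, 29.4 and 58 RPM in WT IPs and 52.6, 45.9 and 68.0 RPM in 3×FG IPs, so that WT IP 3 lay within the range of 3×FG. Genes with high input levels differed from each other in the IP. Unlike rpl-34, neither rpl-23 nor rps-29 passed the test. The IP of rpl-23 held 710, 727 and 669 RPM in WT and 535, 622 and 657 RPM in 3×FG (log2 change -0.22, adjusted p = 0.075). The IP of rps-29 held 137.9, 134 and 143 RPM in WT and 113, 132 and 133 RPM in 3×FG (log2 change -0.14, adjusted p = 0.22). For rps-15, the small subunit gene with the highest input level, the log2 change was -0.49 (adjusted p = 0.0030), short of the fold threshold.

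Overlap with a gene on the opposite strand was present for 13 of the 76 genes, where an antisense read can also be a sense read of the neighbour. Of these 13, 11 were in both tables and 2 were called lower in the IP, rpl-22 (which overlaps C27A2.12) and rpl-28 (R11D1.13). The other 18 called genes had no such neighbour, out of 51 in both tables without one.

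Across the 62 genes, the change in the IP and the change in the input had a Pearson correlation of 0.66, and the log2 IP levels of the genotypes one of 0.82. These are correlations across genes, which are not independent replicates and share libraries. On the input axis rpl-34, rpl-16 and rps-17 were the lowest of the 62.

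**Figure D3:**
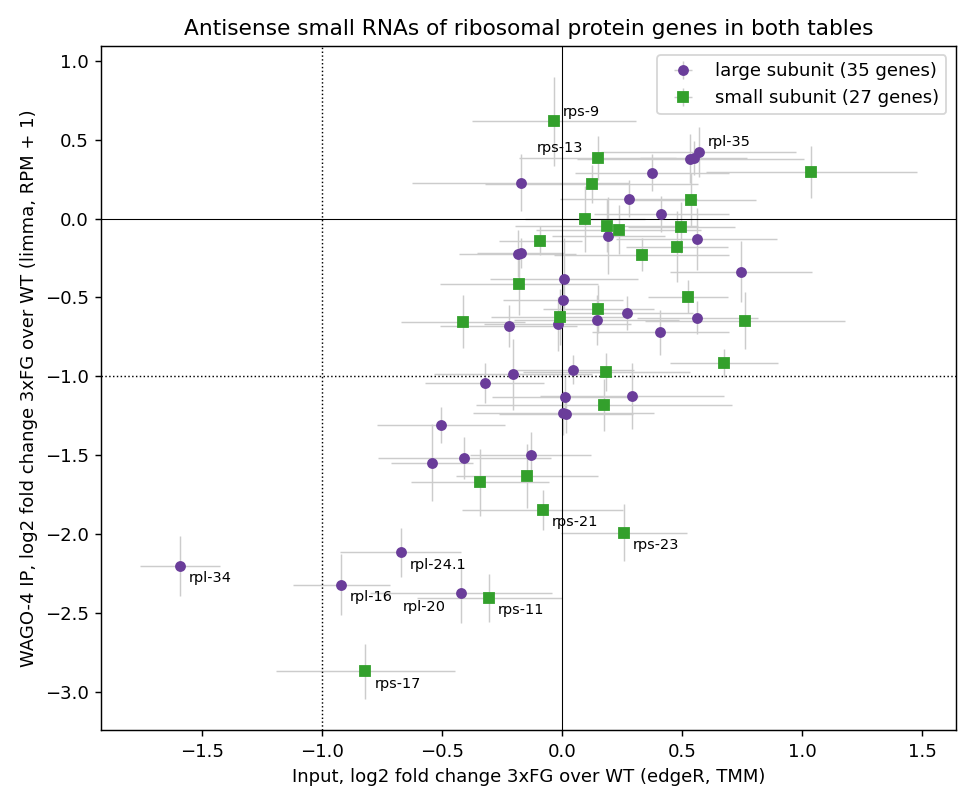
Log2 fold change of 3×FG over WT in the input (horizontal axis, edgeR with TMM) and in the WAGO-4 IP (vertical axis, limma on RPM + 1) for the 62 ribosomal protein genes in both tables. Circles are large and squares small subunit genes, bars are standard errors and dotted lines mark a log2 change of -1. Only rpl-34 lies beyond -1 on both axes. The genes rps-17, rps-11, rpl-20 and rps-23 lie near or below -2 in the IP with input changes of -0.82 to 0.26. Also below -2 in the IP are rpl-16 and rpl-24.1, and rpl-16 lies to the left of rps-17 on the input axis.

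Enrichment of the IP over its own input was then compared between genotypes. For the 35 large subunit genes, WT pairs had median ratios of 12.5, 9.11 and 8.39, and 3×FG pairs had 5.27, 5.55 and 4.32. For the 27 small subunit genes, the medians were 10.2, 8.09 and 6.54 with WT and 3.92, 3.67 and 3.04 with 3×FG. Both subunits were lower in every 3×FG pair than in every WT pair. Other protein-coding genes in both tables moved the same way, from 10.9, 9.11 and 7.75 to 6.22, 6.06 and 4.32. WT pairs 1 and 2 set an IP of batch B over an input of batch A.

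**Figure D4:**
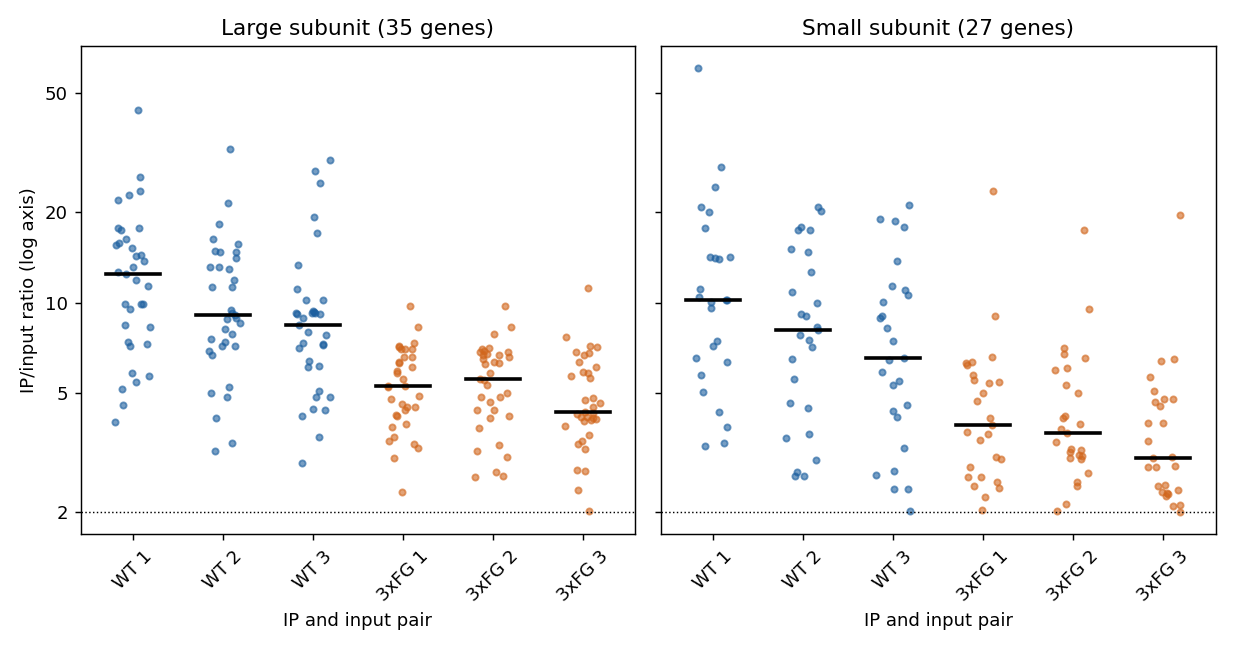
IP over input ratio (log axis) of each large subunit and small subunit gene in both target tables, for 3 WT pairs (blue) and 3 3×FG pairs (orange), with black bars at the medians and a dotted line at the ratio of 2 required for a target. Medians run from 12.5 to 8.39 in WT and 5.55 to 4.32 in 3×FG for the large subunit. The value of rps-12 in WT pair 1 is left out because its input was at the offset of 0.01 RPM.

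In the test of this difference (interaction of genotype and IP, limma), 28 of the 62 genes were called lower in 3×FG and 0 higher, comprising 17 large and 11 small subunit genes. This is 45.2%, against 24.1% called lower and 0.245% called higher among all 4080 features. The median log2 change was -0.92, against -0.67 over all features. The count depended on batch and on scaling. Within batch B, with WT pair 3 as the only WT pair and assumed to vary like the others, 13 were called lower (21.0%, against 6.84% of all features) and 0 higher (0.049% of all features), with a median of -0.72 against -0.42. With TMM scaling the median of all features was -0.08 and that of the genes -0.29, and 5 genes were called lower (8.06%, against 2.99%) and 0 higher (against 1.15%), with a split over all features of 122 lower and 47 higher in place of 983 and 10.

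The 5 genes called lower under TMM scaling were rps-23, rps-17, rpl-20, rps-11 and rps-6, and all 5 were called within batch B as well. WT ratios of rps-17 were 28.4, 17.5 and 21.2 and 3×FG ratios 4.11, 4.11 and 3.98 (log2 change -2.44, SE 0.31, adjusted p = 1.6e-06). Those of rps-23 were 17.7, 15.1 and 8.86 against 2.03, 3.07 and 2.26 (log2 change -2.35, SE 0.30, adjusted p = 1.4e-06). In both, every 3×FG ratio was below every WT ratio.

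For rpl-20 the ratios were 43.9, 32.4 and 27.4 in WT and 6.61, 6.85 and 7.12 in 3×FG. For rps-11 they were 20.0, 17.8 and 10.6 in WT against 3.92, 3.18 and 2.83 in 3×FG. Log2 changes were -2.28 and -2.23 (adjusted p = 4.2e-06 for each). These 4 genes were called lower in the IP as well, under both scalings.

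The gene rps-6, whose product is phosphorylated downstream of TOR signalling, had a different course. Its IPs held 70.7, 67.1 and 69.5 RPM in WT and 36.1, 36.2 and 36.3 RPM in 3×FG, a log2 change of -0.91 that did not reach the fold threshold. Its inputs held 6.34, 7.31 and 7.75 RPM in WT and 13.0, 12.8 and 13.7 RPM in 3×FG (log2 change 0.67, adjusted p = 0.11). Both sets of values were without overlap, in opposite directions. Over the input values of the target tables, which differ from these inputs, the ratio fell from 9.95 to 11.13 in WT to 2.82 to 3.24 in 3×FG (log2 change -1.67, SE 0.25, limma, adjusted p = 8.1e-06).

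Unlike rps-6, the gene rpl-34 was lower in 3×FG in the input as well as in the IP. Its ratios were 12.7, 14.1 and 19.3 in WT and 9.77, 6.66 and 11.15 in 3×FG, and the change of -0.80 in the IP over the input was not called (adjusted p = 0.015). It was the one gene called lower in the IP but not in this test, and 19 genes were called in both. The 9 called only in the IP over input test were rps-6, rps-5, rpl-5, rps-15, rpl-13, rps-1, rpl-24.2, rpl-27 and rpl-7. The ratios of rps-15 were 7.18, 7.48 and 5.88 in WT, and 3.00, 3.03 and 2.30 in 3×FG, without overlap. Leaving out each pair in turn, 18 of the 28 kept the call, and rpl-3, rpl-7, rpl-10, rpl-11.1, rpl-21, rpl-24.2, rpl-27, rpl-28, rps-1 and rps-12 lost it in at least 1 case.

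The largest positive values in this test were 0.49 for rps-9 (adjusted p = 0.22), 0.20 for rpl-30 (adjusted p = 0.61) and 0.11 for rps-13 (adjusted p = 0.75). The ratios of rps-9 were 14.2, 12.7 and 17.8 in WT and 23.6, 17.5 and 19.7 in 3×FG, which overlapped. No gene had every 3×FG ratio above every WT ratio, and 42 of 62 (67.7%) had every 3×FG ratio below, against 1.15% and 57.3% of all features.

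Ribosomal proteins with other names were all targets in both genotypes, and 2 of the 6 fell in the IP. These were the fusions of a ribosomal protein with ubiquitin or a ubiquitin-like protein. The IP of ubq-2 held 78.7, 81.4 and 65.1 RPM in WT and 16.6, 25.6 and 23.5 RPM in 3×FG (log2 change -1.75, SE 0.17, adjusted p = 2.8e-05). That of ubl-1 held 150, 184 and 127 RPM in WT and 50.2, 61.7 and 60.3 RPM in 3×FG (log2 change -1.39, SE 0.15, adjusted p = 4.5e-05). The stalk proteins had log2 changes of -0.44 for rla-0 (adjusted p = 0.018), -0.17 for rla-2 (adjusted p = 0.18) and 0.08 for rla-1 (adjusted p = 0.63), and rpl-7A had -0.39 (adjusted p = 0.012). In the IP over input test the same 2 fusions were called lower under RPM scaling and none under TMM scaling.

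Other genes of translation were counted from lists. Of 67 mitochondrial ribosomal protein genes, 65 were WT targets, 59 were 3×FG targets and 58 were both. Of these 58, 11 were called lower in the IP, a share near the 19.7% of all features, and 0 higher. The median log2 change was -0.25, and the lowest was mrpl-42 at -2.18 (adjusted p = 2.8e-06). With TMM scaling 2 were called lower and 1 higher, and the median was 0.04. The shares called lower in the next lists, 2 of 23 and 1 of 16, were below the 19.7% of all features, and a list of 4 genes is too short for a share. Among 23 initiation factor genes 2 were called lower, eif-2Bgamma at -1.81 (adjusted p = 6.8e-06) and eif-2A at -1.48 (adjusted p = 3.1e-06), with a median of -0.38. Among 4 elongation factor genes eef-2, which moves the ribosome along the mRNA, was called lower at -1.36 (adjusted p = 2.0e-05) and eef-1B.2 was called higher at 1.03 (adjusted p = 5.6e-05). Of 16 nucleolar ribosome biogenesis genes 1 was called lower, with a median of -0.40, and under TMM scaling 0 were. In the input, edgeR with TMM over all 6 libraries called none of the genes of these lists. At an unadjusted p below 0.05, 10 of 67 mitochondrial, 0 of 23 initiation, 1 of 6 elongation and 7 of 17 nucleolar genes passed. Among all antisense protein-coding rows, 3886 of 10863 passed. DESeq2 called 1 mitochondrial gene lower and 1 elongation factor gene higher, against 1667 lower and 768 higher of 22301 features. With batch as a term, edgeR called 1 elongation factor gene higher, against 660 of 22301 features. Without WT input 3 it called 1 elongation factor gene and 1 mitochondrial gene higher, against 3960 of 22122 features. Over WT targets alone it called 1 mitochondrial gene lower, against 321 of 4850 features.

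Sense reads over the same genes, which share the sequence of the mRNA, separated the inputs by batch. Summed over the large subunit they were 27.2 and 41.9 RPM in WT inputs 1 and 2, 883 RPM in WT input 3 and 927, 805 and 705 RPM in 3×FG. Summed over the small subunit they were 41, 46.5 and 654 RPM in WT and 712, 625 and 553 RPM in 3×FG. WT input 3, the only WT input of batch B, stood with the 3×FG inputs. Of the reads on both strands of the 76 genes, sense reads were 6.97% and 7.84% in the batch A inputs and 48.4% to 63.0% in the others, against 4.76% and 4.78%, and 9.73% to 13.9%, over all protein-coding genes.

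In the test over both batches, 67 of 68 genes had a positive sense change with a median of 1.08. Of all 7241 sense protein-coding rows, 5653 were positive, with a median of 0.44. Within batch B, a comparison added after seeing the data, 57 of 68 genes had a negative change with a median of -0.25. There 5409 of the 7241 rows were negative, with a median of -0.39. Over both batches, 1 of 68 genes had an unadjusted p below 0.05, against 543 of the 7241 rows. In that test 1 gene was called higher, against 4 of the 7241 rows and 0.839% of all features. None was called lower, against 25 of the 7241 rows. DESeq2 also called 1 higher and 0 lower, against 22 and 132 of the 7241 rows and 768 and 1667 of 22301 features. This gene was rps-0, with 0, 2 and 0 sense reads in WT inputs and 2222, 976 and 203 in 3×FG inputs (edgeR, adjusted p = 0.0058). Its WT count was 0 in WT input 3 too, a library in which the small subunit genes together had 654 RPM of sense reads, but that is 1 WT library. Its antisense reads had the opposite pattern, with 6, 0 and 41 in WT and 0 in each 3×FG input. How reads were assigned to the strands of this gene was not tested, so the call is uncertain.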

How the data were processed

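Total and WAGO-4-bound small RNAs of whole C. elegans were sequenced, 3 inputs and 3 IPs per genotype. The authors deposited read counts per feature for the 6 inputs; the 2 target tables, per the file headers and the study's methods, hold 22G-RNA values in RPM, with an offset of 0.01, and the IP over input ratio per pair as deposited. The submitters' processing notes name cutadapt 1.15, STAR 2.6.0c and the builds ce11 and ce10. Columns of the authors' own comparisons were not used.

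Input counts were tested with edgeR 4.0.16 (quasi-likelihood, TMM, filterByExpr with a minimum count of 10) in R 4.3.3 over all features, the 2 strands together. IP levels and IP over input were tested with limma 3.58.1 (trend) on log2(RPM + 1) over the 4080 features in both tables, which understates changes of low genes. Features were called at a Benjamini-Hochberg adjusted p below 0.01 and a log2 change beyond 1. DESeq2 1.42.0, other scalings, pseudocounts, filters, batch and pairing terms and leaving out libraries were alternatives. The scripts were tested on simulated data. Reads with no feature, left out, were 4.58% to 6.15% of input totals.

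Genes named in the text were those called in any fit, in 1 target table only, the 5 highest and 5 lowest per kilobase of each subunit, the 3 largest changes each way per fit, paralogues sharing a number and ribosomal protein genes named outside the rule; rps-6, rpl-42 and a few others were added after their values were seen. The genes and lists were chosen with earlier results of these data known. IP and input were paired by lysate from the library names. Correlations of lysate pairs were 0.014 to 0.12, and same-numbered samples of the 2 genotypes correlated at -0.33 to -0.03 (inputs) and -0.15 to 0.31 (IPs), so numbers did not pair genotypes. WT input 3 and 3×FG input 1 carry the same R number in their library names and correlated at 0.40. The replicate block followed the sample numbers, and a block by R number was not tested. IP depth was estimated from RPM steps, of which 77.7% to 85.3% of 300 low values per IP were whole within 0.1 read. Gene positions are from Ensembl release 115 (WBcel235). Counting floors and intervals cover counting error only.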

Additional observations from a re-analysis of the deposited data

Results flagged for a closer look

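The change in IP over input between WT and 3×FG differed from 0 by the interaction test for 28 genes, each lower in 3×FG. The log2 differences were -2.45 for rps-17, -2.35 for rps-23, -2.28 for rpl-20, -2.23 for rps-11, -1.86 for rps-12, -1.69 for rps-21, -1.67 for rps-6, -1.66 for rpl-24.1, -1.63 for rps-22, -1.58 for rpl-16, -1.56 for rps-14, -1.54 for rpl-1 and -1.51 for rpl-21. They were -1.48 for rpl-22 and for rpl-25.2, -1.38 for rpl-31, -1.35 for rps-5, -1.30 for rpl-5, -1.29 for rps-15, -1.26 for rpl-13, -1.22 for rps-1 and for rpl-11.1, -1.20 for rpl-24.2, -1.14 for rpl-27, -1.11 for rpl-28, -1.08 for rpl-7 and -1.03 for rpl-10 and for rpl-3. The value of rps-12 includes a WT input at the offset of 0.01 RPM. The 2 batch A inputs are both WT, and their part in these values was not tested beyond the within-batch counts.

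Outside the antisense rows, the 3×FG target table also held the sense strand of rpl-25.2, with IP over input ratios of 4.97, 3.04 and 4.83. The IPs held 73.0, 36.3 and 70.4 RPM and the inputs 14.7, 11.96 and 14.6 RPM.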

How the results depend on the processing

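No gene called in the main tests changed direction under the alternatives run. For single genes, 429 values kept their call and 83 lost it. For counts of genes, 69 stayed within 1.5 times the main count and 17 did not. The 69 include every count that was 0 in both the main fit and the alternative, so they are no measure of stability. In the input, where 1 of 73 genes was called lower, against 454 of 22301 features, DESeq2 called 3, against 1667. TMM over antisense protein-coding rows called 2, against 691 of 22301 features. No filter on low counts gave 2 of 76 genes, against 478 of 61129 features. Leaving out 1 library gave 0 to 3 genes lower and 0 to 2 higher, against 1 to 3078 and 8 to 3960 features. Restricting to WT targets gave 1 higher, against 124 of 4850 features. With the replicate number as a block, 0 genes were called lower in the input, where rpl-34 had an adjusted p of 0.0308. With this block 0 of all 22301 features were called in either direction, so the count does not set these genes apart. With the replicate block 20 genes were called lower in the IP, against 806 of 4080 features. With the lysate as a block 29 were called lower in the IP over input, against 1021 of 4080 features. The IP count of 20 was 18 to 21 without each library, against 763 to 863 of 4080 features. The IP over input count of 28 was 5 with TMM scaling, 13 within batch B and 21 to 32 without each pair. Of all 4080 features, 983 were called lower in the main IP over input fit and 122 with TMM scaling. Without each pair, 541 to 1409 features were called lower, so the count of genes moved with that of all features. Requiring a ratio of at least 3 left 60 genes in the WT table, 42 in the 3×FG table and 41 in both. The share of WT targets kept went from 93.9% (84.9% over all protein-coding rows) to 68.3% (73.6%). The cause of these differences was not tested. WT inputs 1 and 2 had the fewest reads, 2208475 and 5200665.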
